A study of Mus musculus with 10 samples.

Results

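Immediate early genes are switched on within minutes of a stimulus, without new protein synthesis, and most encode transcription factors or short-lived regulators. The cells described here are mouse hepatocytes chosen by their counts of 7 of these genes: each holds at least 5 UMIs (unique molecular identifiers, 1 per captured mRNA molecule) summed over Fos, Jun, Junb, Egr1, Atf3, Ier2 and Nr4a1. They number 425 of 18378 cells, or 2.31%. They were compared with cells of the same library that held 0 UMIs of the 7 genes, of which there were 9631, matched for total UMIs.

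The cells came from livers of male C57BL/6 mice, 3 months of age and fed regular chow at will, which were anaesthetised with ketamine and xylazine before collagenase perfusion and Percoll enrichment of hepatocytes. All groups share these conditions and differ in the time of collection, given as Zeitgeber time (ZT, hours after lights on). Of the 10 droplet libraries of mRNA 3′ ends, 3 (A, B and C) were of ZT0, 2 of ZT6, 3 of ZT12 and 2 of ZT18. The labels do not give the number of mice behind a library, so libraries served as replicates and no p-value measures the spread between mice. The edgeR p-values also borrow the spread of other genes and weigh libraries by their counts. A single library with many UMIs can therefore carry a call. Whether mRNA of the 7 genes was made in the liver or during anaesthesia, perfusion and enrichment cannot be told apart in this design.

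Fos, Jun and Junb are subunits of the AP-1 transcription factor, Egr1 is a zinc-finger factor downstream of growth factor signalling, Atf3 is a stress-induced factor, Nr4a1 is an orphan nuclear receptor induced by cyclic AMP, and Ier2 is a nuclear early response protein. In liver the family is known for its induction by partial hepatectomy, feeding hormones and cell isolation. Their transcripts are short-lived, and regulators such as Btg2 and the Zfp36 family, which act on mRNA decay, are induced alongside them.

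The proximal promoters of Fos and Junb, which the choice of cells used, and of Btg2, which it did not use and which was higher in the chosen cells, are shown because these genes were high in the same cells. Each is the 200 bases before the transcription start from RefSeq, build GRCm38.p6, 5′ to 3′ on the gene's strand. Capitals mark TGACG on either strand, the core of the site bound by factors of the CREB and ATF family. The regions are chr12:85473690-85473889 on the plus strand for Fos, chr8:84978749-84978948 on the minus strand for Junb and chr1:134079156-134079355 on the minus strand for Btg2.
Fos: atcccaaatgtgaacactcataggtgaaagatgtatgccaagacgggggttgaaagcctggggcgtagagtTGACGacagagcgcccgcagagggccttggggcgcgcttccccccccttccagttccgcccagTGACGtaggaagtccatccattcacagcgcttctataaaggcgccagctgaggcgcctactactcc
Junb: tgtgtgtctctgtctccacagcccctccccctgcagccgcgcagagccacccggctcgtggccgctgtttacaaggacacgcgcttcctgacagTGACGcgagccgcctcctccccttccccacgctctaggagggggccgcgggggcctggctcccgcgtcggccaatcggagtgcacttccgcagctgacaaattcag
Btg2: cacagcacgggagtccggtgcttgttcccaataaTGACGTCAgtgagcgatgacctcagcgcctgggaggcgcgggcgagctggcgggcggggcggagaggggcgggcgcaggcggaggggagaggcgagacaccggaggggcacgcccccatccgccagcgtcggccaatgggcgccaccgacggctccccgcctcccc
The Fos promoter holds 2 such matches and Junb 1. In Btg2 the 2 matches overlap in a single TGACGTCA, the full palindrome. In the window from 250 bases before to 50 after the start, Nr4a1 held 4 matches of TGACG, Atf3 held 1 and Jun held 0. Of all 32851 promoter windows of that length, 20.8% held TGACG on either strand and 1.79% held TGACGTCA. A match is a description of the sequence only.

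The cut at 5 UMIs falls in a continuous distribution. There were 4902 cells with 1 UMI of the 7 genes, 2099 with 2, 911 with 3, 410 with 4 and 195 with 5, while 71 cells held 8 or more and the highest count was 17. The chosen cells are therefore a range of counts. Counts this low, pooled over libraries of unlike depth, cannot show whether a separate population lies within it. Cells just inside the cut resembled those just outside it: 39.0% of cells with 5 UMIs and 36.6% of cells with 4 UMIs lay in the periportal bin (of 3, by zonation score), and 15.8% and 15.9% of their UMIs were mitochondrially encoded. A count cut also favours deep cells. The median total was 3981 UMIs in the chosen cells against 1789 in cells with 0 UMIs of the 7 genes.

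Egr1 led the profile that chose the cells. It gave 42.8% of their UMIs of the 7 genes and was detected in 395 of the 425 cells. Junb gave 21.3%, Fos 12.4%, Jun 10.6%, Ier2 8.87%, Nr4a1 2.83% and Atf3 1.13%. At least 3 of the 7 genes were detected in 79.3% of the cells, and none held all 7. The mix differed between libraries: Egr1 made 50.5% of these UMIs in the chosen cells of ZT0C and 25.6% in those of ZT6B, where Junb made 29.7%. Nr4a1 made 8.14% in ZT6B and 1.73% in ZT0C, and Fos was at its highest share, 21.2%, in ZT6A. These values describe the choice and carry no test.

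The chosen cells carried the hepatocyte programme. All 14 hepatocyte marker genes, Alb among them, were detected in them and summed to between 117983 and 153182 CPM (UMIs scaled to a common library total) in the 5 libraries with at least 10 matched pairs, against 118501 to 187084 in the matched cells. Several defining markers of other liver cells were at 0 UMIs: Clec4f, C1qa, C1qb, C1qc, Marco, Csf1r and Adgre1 of macrophages, Krt19, Krt7 and Epcam of bile duct cells, Col1a1, Col3a1 and Col1a2 of stellate cells, and Clec4g and Lyve1 of endothelium. Some markers of each list were at 0 and others were not. Of the endothelial list 4 of 10 were at 0 in the chosen cells of the fit, and the list summed to at most 18.2 CPM against 28.0 in matched cells. Of the macrophage list 7 of 11 were at 0 (at most 6.53 against 5.19 CPM), and of the stellate list 4 of 9 (at most 18.2 against 21.7). Of 10 lymphocyte genes in the files 8 were at 0 (at most 18.2 against 8.70), and of 5 neutrophil genes 4 (at most 3.26 against 4.35). Of the bile duct list 3 of 7 were at 0, and it summed to 13.9 to 91.0 CPM against 25.9 to 95.7. Of 6 erythroid genes in the files 4 were at 0, among them Hbb-bs and Hbb-bt, and the list summed to 55.6 to 123 CPM against 60.9 to 121. The ranges of chosen and matched cells overlapped for each of these lists. The files hold no second cell type in number, so the level that free RNA gives for the 7 genes was not measured. No doublet caller was run.

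One library stood apart. ZT0C gave 237 of the chosen cells, 55.8% of the total, and 13.2% of its cells passed the cut (exact 95% binomial interval 11.7% to 14.9%, counting error only). The other ZT0 libraries gave 0.336% (A, 7 cells) and 1.08% (B, 31 cells). At ZT6 the shares were 3.76% (A, 91 cells) and 2.15% (B, 31 cells). ZT12 was low throughout, with 0 of 710 cells in A, for which the exact interval reaches 0.518% and the limit of 3 counts 0.423%, 0.243% in B and 0.0878% in C. At ZT18 the shares were 0.0596% in A, a single cell, and 1.12% in B, 20 cells. Both ZT6 libraries lay above every ZT12 and ZT18 library, and the ZT0 libraries spanned nearly the whole range.

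The order of ZT0C, ZT6A and ZT6B changed on the summed level of the 7 genes and was kept by the share of thinned cells with 5 or more. The 7 genes summed to 620 CPM over all cells of ZT0C, 683 in ZT6A and 642 in ZT6B, so the ZT6 libraries were at or above ZT0C on this scale. They summed to 158 in ZT0A and 321 in ZT0B, to 199, 183 and 192 in the 3 ZT12 libraries, and to 302 and 382 at ZT18. Each cell was then thinned to 1500 UMIs, with between 259 and 779 shallower cells left out per library. After thinning, 1.28% of cells in ZT0C (19 cells), 0.975% in ZT6A (16 cells) and 0.696% in ZT6B (6 cells) held 5 or more. Every other library had at most 0.154%, on 0 to 2 cells. The 4 times did not differ past the threshold on this share (exact permutation test over libraries, two-sided, p = 0.223, 10 libraries), and did so without ZT0C (exact permutation p = 0.0452). The test used log2 of the percent plus 0.1, so this offset largely set the values of libraries with 0 to 2 cells. With 3 or more UMIs after thinning the exact permutation p was 0.0797, and with cells thinned to 2000 UMIs it was 0.0976. Among libraries whose sample index begins alike, ZT0B, ZT6A, ZT6B and ZT12B had their highest shares at ZT6, and ZT0C exceeded ZT12C. Variation at fixed depth was modest: the variance of the thinned counts was 1.07 to 1.38 times their mean.

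**Figure D1:**
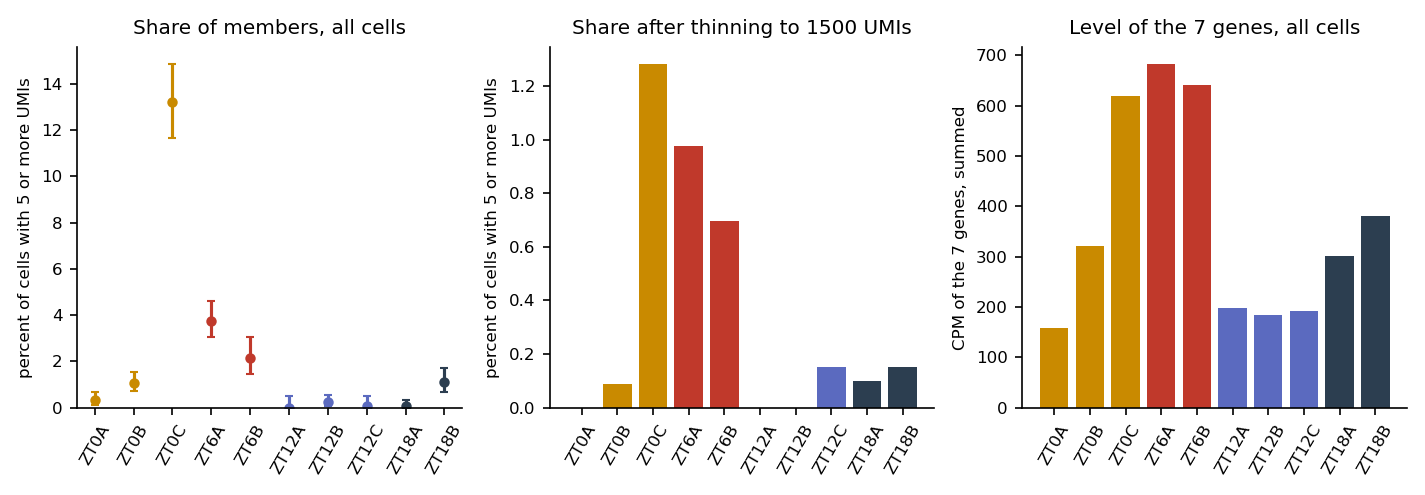
The chosen cells by library, coloured by time: percent of all cells with 5 or more UMIs of the 7 genes (points, bars exact 95% binomial intervals), the same percent after thinning to 1500 UMIs, and the summed CPM of the 7 genes in all cells. ZT0C stands at 13.2% in the first panel, while in the last ZT6A and ZT6B are at 683 and 642 against its 620.

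Whether the 7 genes rise together in a cell cannot be read from cells chosen on their sum. Each was therefore measured in cells chosen by the other 6 alone, 5 or more UMIs against 0, at matched depth. Fos, Junb, Egr1 and Ier2 were each higher in cells that were high for the other genes, by 2.01 to 2.59 fold. The tests are edgeR quasi-likelihood tests of counts summed per library and class, with the library as block and Benjamini-Hochberg adjustment over all genes of that fit.

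Junb was at 166 against 35.6 CPM in ZT0B, 209 against 87.1 in ZT0C, 198 against 122 in ZT6A, 257 against 147 in ZT6B and 70.5 against 0 in ZT18B. It was higher in 5 of 5 libraries, by 1.14 ± 0.24 on the log2 scale (SE; edgeR adjusted p = 0.000555), in a fit where 1.39% of all genes were called. Fos was at 154 against 9.63 in ZT0B, 93.8 against 38.1 in ZT0C, 188 against 111 in ZT6A, 131 against 37.8 in ZT6B and 58.3 against 58.4 in ZT18B. It rose by 1.27 on the log2 scale (SE 0.29, edgeR adjusted p = 0.00141, 1.56% of genes called), in 4 of 5 libraries. Ier2 rose in 5 of 5 libraries, by 1.37 (SE 0.32, edgeR adjusted p = 0.00414, 2.29% of genes called), from 26.0 to 91.6 CPM in ZT0C and from 55.7 to 89.1 in ZT6A.

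Egr1 could be read in 2 libraries only, since without it few cells reach the cut. It was at 457 against 164 in ZT0C and 285 against 250 in ZT6A, higher by 1.01 ± 0.25 on the log2 scale (SE; edgeR adjusted p = 0.00537, 1.18% of genes called). Jun was higher in 4 of 4 libraries, by 0.90 (SE 0.28), and did not pass the test (edgeR adjusted p = 0.148, 1.33% of genes called). Atf3 and Nr4a1 were too sparse to enter, with 12 against 5 and 26 against 12 UMIs. Without ZT0C no gene passed: the log2 differences were 1.28 for Fos, 1.02 for Junb and 0.95 for Ier2, at edgeR adjusted p of 0.239, 0.767 and 0.691, and Egr1 could not be fitted. With a cut of 3 UMIs, which brings in libraries of all 4 times, Fos, Junb, Egr1 and Ier2 passed with ZT0C. Without it Fos (0.86), Egr1 (0.72) and Ier2 (0.79) passed, while Junb was at 0.62 with an edgeR adjusted p of 0.0548. The differences were smaller at this cut.

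**Figure D2:**
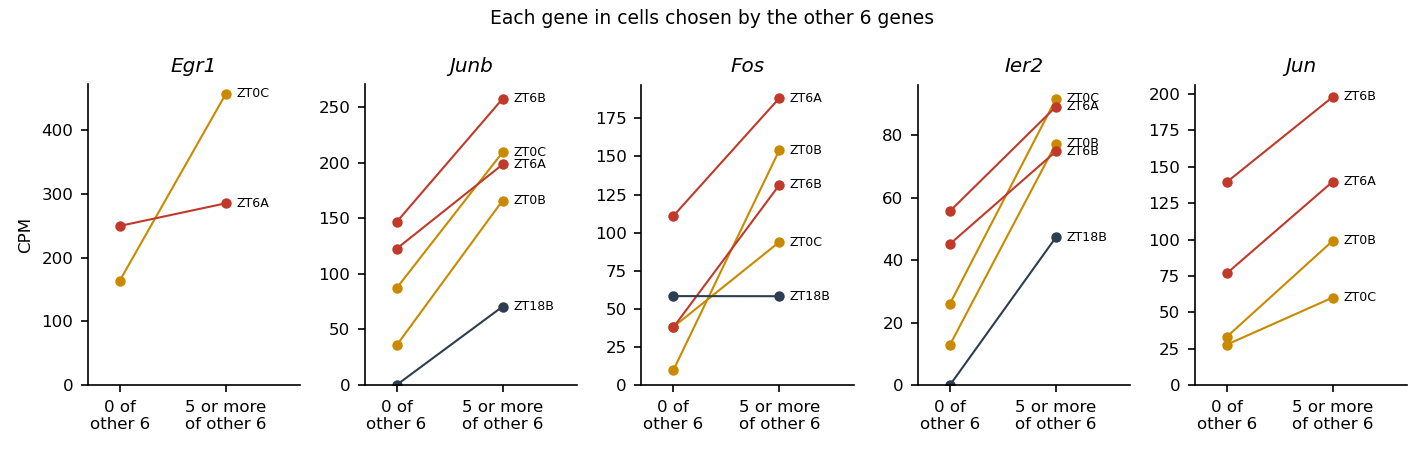
CPM of Egr1, Junb, Fos, Ier2 and Jun in cells with 0 and with 5 or more UMIs of the other 6 genes, 1 line per library, coloured by time as in the plot of shares; axes differ between panels. Junb, Ier2 and Jun rise in every library drawn, and Fos is level in ZT18B (58.3 against 58.4).

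For the genes outside the rule, 301 of the chosen cells could be paired with cells of similar depth in the 5 libraries with at least 10 pairs: 31 in ZT0B, 141 in ZT0C, 81 in ZT6A, 30 in ZT6B and 18 in ZT18B. No ZT12 library entered. In ZT0C 141 of its 237 chosen cells found a partner. Their median was 3895 UMIs without the 7 genes, against 5283 in all chosen cells of that library. The gene results of ZT0C thus describe its shallower chosen cells more than its deep ones. Of 3282 genes that averaged 30 CPM or more, 12 were higher in the chosen cells (0.366% of genes tested) and 53 were lower (1.61%) by the edgeR test at an adjusted p under 0.05. All 5 libraries moved the same way for 9 of the higher genes and 25 of the lower ones. The median log2 difference over all genes tested was 0.003. The higher genes included Btg2, Gls2, Pck1 and the periportal landmarks Hal and Pigr, and the lower genes included 7 of 8 pericentral landmarks. With library size in place of TMM the split was 22 higher and 37 lower. At a cut of 3 UMIs, with 9 libraries, 13 genes were higher (0.398% of genes tested) and 102 lower (3.12%), and 2 of the 12 and 38 of the 53 were among them.

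Btg2 is an antiproliferative regulator of mRNA deadenylation and a known early response gene. At the cut of 5 UMIs it was the early response gene outside the rule that passed. It was at 112 against 86.5 CPM in ZT0B, 118 against 31.1 in ZT0C, 166 against 60.9 in ZT6A, 250 against 140 in ZT6B and 237 against 36.4 in ZT18B. It was higher in 5 of 5 libraries, by 1.38 ± 0.24 on the log2 scale (SE; edgeR adjusted p = 7.56e-05). Over all cells, with 0, 1 to 2, 3 to 4 and 5 or more UMIs of the 7 genes, Btg2 was at 47.0, 54.5, 76.5 and 106 CPM in ZT0C, at 90.6, 119, 197 and 234 in ZT6B and at 87.3, 124, 156 and 212 in ZT18B. In ZT0B it was at 65.9, 86.7, 131 and 112, and in ZT6A at 85.3, 130, 158 and 154, so in these 2 libraries the top class lay below the class before it. Without ZT0C the difference was 1.09 with an edgeR adjusted p of 0.0668, and at the cut of 3 UMIs it was 0.94 (edgeR adjusted p = 4.6e-07).

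No other tested gene of the early response lists passed at the cut of 5 UMIs. Of 11 tested regulators of signalling and RNA decay, Btg2 was the 1 that passed at this cut. Among the 11, 9 had positive differences, 5 had an unadjusted p under 0.05 and the median was 0.25. Over all 3282 genes tested, 1657 had positive differences and 326 an unadjusted p under 0.05. At the cut of 3 UMIs 2 of the 11 were called, Btg2 among them, with a median of 0.22. In that fit 0.398% of all genes tested were higher and 3.12% lower. Trib1, a pseudokinase, was at 0.78 (SE 0.23, edgeR adjusted p = 0.0609) and Btg1, a relative of Btg2, at 0.78 (SE 0.23, edgeR adjusted p = 0.0594), each higher in 5 of 5 libraries. Of 25 listed early response transcription factors, 6 could be tested and 0 passed, with a median of 0.29; 2 of them had an unadjusted p under 0.05. Klf10, a Krüppel-like factor, was at 0.70 (SE 0.46, edgeR adjusted p = 0.703), and Id2, a dominant-negative helix-loop-helix factor, was at 0.53 (SE 0.18, edgeR adjusted p = 0.15). Several close relatives of the 7 genes had few UMIs. In the 410 chosen cells of these 5 libraries there were 3 UMIs of Fosb, 3 of Nr4a2, 0 of Nr4a3 and 0 of Egr2, against 282 of Jund. Of the other early response factors, Klf6 had 9 and Myc 26, while Cebpb had 501 and Id2 409.

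No gene of the stress lists passed. None of 9 heat shock genes (median -0.05), 10 genes of the integrated stress and unfolded protein response (median 0.19) or 7 oxidative stress genes (median 0.22) passed. Of these lists 1, 2 and 1 genes had an unadjusted p under 0.05, against 326 of all 3282 genes tested. Atf4, the effector of the integrated stress response, was higher in 5 of 5 libraries at 0.80 (SE 0.24, edgeR adjusted p = 0.0735), and Mt1, a metallothionein, in 5 of 5 at 0.56 (SE 0.19, edgeR adjusted p = 0.143). At the cut of 3 UMIs Atf4 passed at 0.52 (edgeR adjusted p = 0.015). Of 15 acute phase genes, Saa1 was called and was lower, and the list's median was -0.14. At the cut of 3 UMIs 5 of 16 tested acute phase genes were called, with a median of -0.19. In that fit 0.398% of all genes tested were higher and 3.12% lower. None of 6 cytoskeletal targets of serum response factor passed (median 0.32, 0 with an unadjusted p under 0.05).

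The metabolic enzymes Gls2, Pck1 and Acly were higher in every library. Gls2, the liver glutaminase, was at 242 against 112 CPM in ZT0B, 225 against 95.1 in ZT0C, 293 against 165 in ZT6A, 389 against 126 in ZT6B and 218 against 127 in ZT18B. The groups did not overlap, and the mean difference was 1.06 on the log2 scale (SE 0.17, edgeR adjusted p = 3.88e-05). Pck1, the rate-limiting enzyme of gluconeogenesis, was at 779 against 519 in ZT0B, 1200 against 750 in ZT0C, 2164 against 1448 in ZT6A, 2419 against 811 in ZT6B and 928 against 618 in ZT18B. It was higher in 5 of 5 libraries by 0.71 (SE 0.12, edgeR adjusted p = 5.65e-05). Pck1 was the 1 gene called of 11 tested in a list of fasting and glucocorticoid genes, where 0.366% of all genes were higher. Of the 11, 9 had positive differences (median 0.30) and 8 an unadjusted p under 0.05, against 1657 and 326 of all 3282 genes. At the cut of 3 UMIs 0 of 13 tested genes of this list were called (median 0.09). Acly, the ATP citrate lyase that feeds fatty acid synthesis, rose by 0.88 (SE 0.15, edgeR adjusted p = 5.65e-05) in 5 of 5. These 3 genes also passed without ZT0C, at 0.95 for Gls2, 0.74 for Pck1 and 0.87 for Acly. None of the 3 passed at the cut of 3 UMIs, where Gls2 was at 0.35 (edgeR adjusted p = 0.066), Pck1 at 0.23 (0.071) and Acly at 0.21 (0.187).

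The other higher genes rested more on single libraries. Hal, the histidine ammonia lyase of periportal cells, rose by 0.85 but was lower in ZT18B, at 146 against 254 CPM. Arg1 of the urea cycle rose by 0.55, the immunoglobulin receptor Pigr by 0.48, the mitochondrial serine carrier Sfxn1 by 0.69, complement C9 by 0.51, urate oxidase Uox by 0.40, and Stat3, the mediator of interleukin-6 signalling, by 0.87. Each of these 7 lost its call without ZT0C. Cib3, a calcium-binding protein, had the highest difference at 1.86 (SE 0.51, edgeR adjusted p = 0.0328), on few UMIs: 17 against 2 in ZT6A, 10 against 0 in ZT6B and 8 against 4 in ZT0C. It lost its call without either ZT6 library.

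Pericentral landmarks were lower as a list. Of the 8 pericentral landmarks tested, 7 were lower and 0 higher (median -0.84; 1.61% of all genes tested were lower), and of the 8 periportal landmarks 2 were higher and 0 lower (median 0.43; 0.366% of all genes were higher). At the cut of 3 UMIs 4 of 8 pericentral and 0 of 8 periportal landmarks were called, with medians of -0.39 and 0.07. Cyp2e1, the ethanol-inducible cytochrome, was at 856 against 1393 CPM in ZT0B, 2326 against 4340 in ZT0C, 1003 against 2344 in ZT6A, 946 against 1944 in ZT6B and 1820 against 1382 in ZT18B. The 4 libraries of ZT0 and ZT6 were lower in chosen cells and the ZT18 library was higher, and the fitted value was -0.84 on the log2 scale (SE 0.13, edgeR adjusted p = 1.19e-05). Cyp2a5, a coumarin hydroxylase, was level in ZT0B at 51.9 and lower elsewhere, at 93.0 against 427 in ZT0C, 25.5 against 148 in ZT6A, 55.6 against 154 in ZT6B and 36.4 against 200 in ZT18B. It fell by 2.11 on the log2 scale (SE 0.22, edgeR adjusted p = 2.75e-10), and passed without ZT0C as well.

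The genes of the outermost pericentral layer were read mainly from ZT0C. Glul, glutamine synthetase, which marks hepatocytes next to the central vein, had 47 UMIs in chosen cells against 1219 in matched cells of ZT0C. Elsewhere Glul had few UMIs, with 8 against 13 in ZT0B, 10 against 23 in ZT6A, 31 against 8 in ZT6B and 3 against 3 in ZT18B. Its fitted value of -2.84 on the log2 scale (SE 0.41, edgeR adjusted p = 1.75e-06) was 0.002 without ZT0C (edgeR adjusted p = 0.999), and DESeq2 did not call it (adjusted p = 0.758). Slc1a2, a glutamate transporter of the same cells, had 11 against 169 UMIs in ZT0C and at most 8 in any other sum; it was at -3.22 and was too low to test without ZT0C. Oat, ornithine aminotransferase, was lower in 3 of 5 libraries, at 328 against 2009 CPM in ZT0C, and fell by 1.81 in the fit and by 0.92 without ZT0C. Both Glul and Slc1a2 were singled out after their values were seen.

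Of the other lower genes, Cyp2c37 fell by 1.71, Cyp2c69 by 1.47, Cyp4a10 by 1.11 and Mup11 by 1.05; these belong to families of near-identical copies, so their counts are uncertain between copies. Lpl, lipoprotein lipase, fell by 2.08, the glutathione transferase Gstm2 by 1.54, the amino acid transporter Slc16a10 by 1.27, the chemotactic factor Lect2 by 1.23 and the lipid droplet protein Fitm1 by 1.23. Among these 9 genes, Mup11 was the 1 called without ZT0C, and 4 were then too low to test. Of 14 hepatocyte genes 3 fell and 0 rose (median -0.14). At the cut of 3 UMIs 5 of the 14 were called (median -0.17), where 0.398% of all genes tested were higher and 3.12% lower. Apoa2, an apolipoprotein of HDL, fell in 5 of 5 libraries by 0.67 (SE 0.11, edgeR adjusted p = 5.21e-05), and transthyretin Ttr in 5 of 5 by 0.45.

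**Figure D3:**
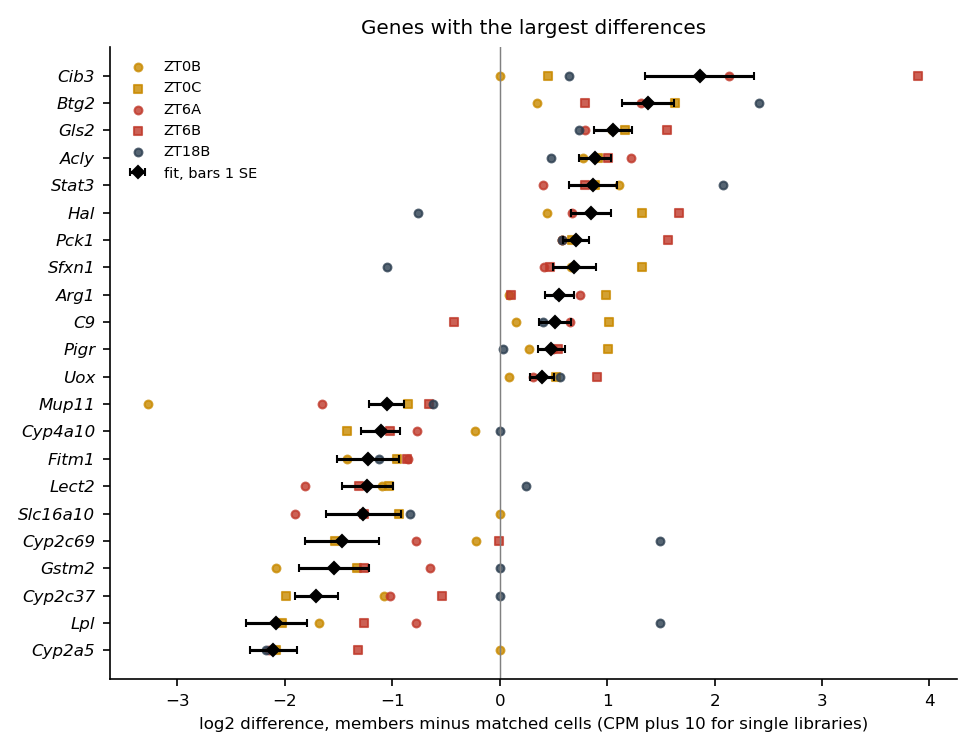
Log2 difference of chosen minus matched cells for the 12 higher and 10 lower genes picked by the naming rule; diamonds are the fit with bars of 1 SE, small points are single libraries (CPM plus 10), coloured by time. Gls2, Acly and Pck1 have every library to the right of 0, and ZT18B (dark points) lies to the right for Lpl and Cyp2c69.

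With cells paired on zonation score as well as depth, 4 genes were higher and 17 lower. The 4 were Btg2 (0.92), Gls2 (0.75), Acly (0.61) and Pck1 (0.51), and the 17 still held Glul, Oat, Cyp2a5 and Lpl. All 21 were among the 65 called at matched depth alone. This pairing did not level the landmarks of the score: their median log2 difference was -0.64 for pericentral and 0.32 for periportal landmarks. Over all genes tested the median under this pairing was 0.006. What remained of the zonation difference in the 21 genes was not tested. Without ZT0C as well, 0 were higher and 2 lower by edgeR, with 75 and 105 at an unadjusted p under 0.05.

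The position of the chosen cells along the lobule varied between libraries, and its mean shift did not pass the test. Each library was divided into 3 bins of equal size by the score of 8 periportal minus 8 pericentral landmarks. Chosen cells lay in the pericentral bin in 29.0% of cases in ZT0B, 18.4% in ZT0C, 19.8% in ZT6A and 10.0% in ZT6B, and matched cells in 48.4%, 52.5%, 48.1% and 40.0%. The excess of chosen cells lay in the middle bin at ZT0, with 46.8% against 19.1% in ZT0C, and in the periportal bin at ZT6, with 48.1% against 23.5% in A and 16 against 9 of 30 cells in B. In ZT18B the order was opposite, with 50.0% of chosen and 33.3% of matched cells pericentral. The zonation score was higher by 0.37 ± 0.54 (SD, n = 5 libraries; exact permutation p = 0.188, adjusted 0.225), in 4 of 5 libraries. At the cut of 3 UMIs it was higher by 0.03 ± 0.43 (SD, n = 9 libraries; exact permutation p = 0.828) and in 5 of 9 libraries. There it was higher in ZT0B, ZT0C, ZT6A, ZT6B and ZT12B and lower in ZT0A (-0.44), ZT12A (-0.28), ZT18A (-0.53) and ZT18B (-0.34).

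**Figure D4:**
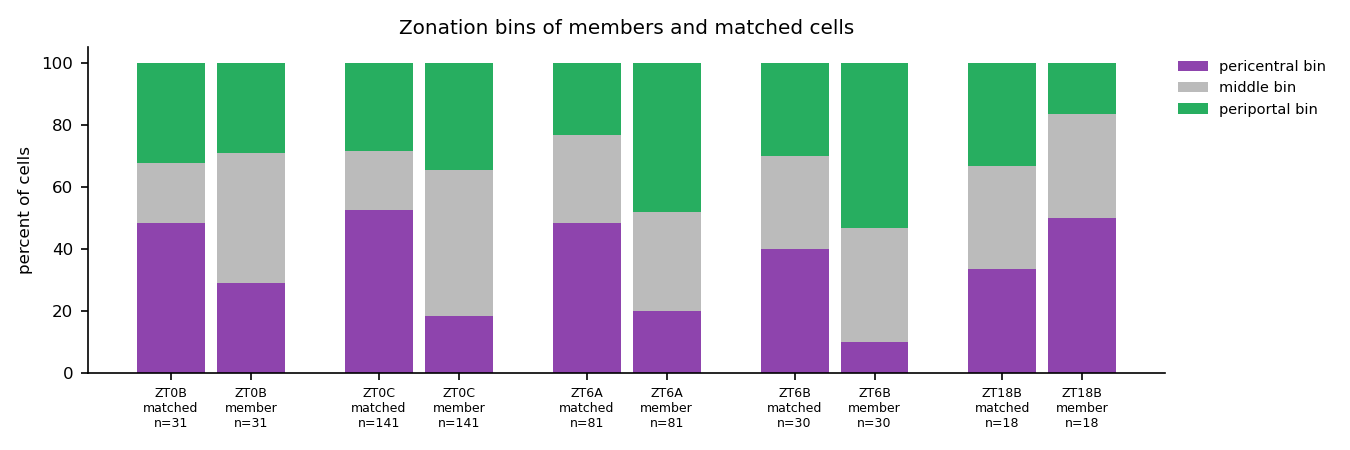
Percent of matched and chosen cells in the pericentral, middle and periportal bin of each library's zonation score, for the 5 libraries in the fit. The pericentral part shrinks in chosen cells at ZT0 and ZT6 (18.4% against 52.5% in ZT0C) and grows in ZT18B (50.0% against 33.3%).

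The level of the 7 genes over all cells, which needs no cut, also had opposite orders at ZT6 and ZT18. At ZT6 it was 778 CPM in the periportal and 574 in the pericentral bin of A, and 750 and 538 in B. At ZT18 it was 266 and 379 in A, and 340 and 427 in B. At ZT0 the periportal bin was higher in B (350 against 271) and C (686 against 469) and lower in A (143 against 166). At ZT12 the bins lay within 171 and 213 in every library. These values use the genes of the rule and are given without a test.

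**Figure D5:**
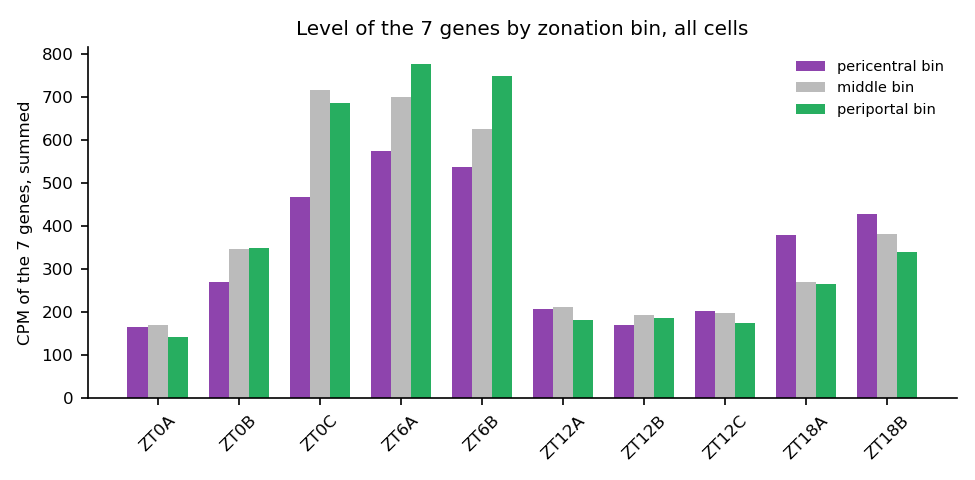
Summed CPM of the 7 genes in all cells of the pericentral, middle and periportal bin of each library. The periportal bar is the highest in ZT6A (778) and ZT6B (750), and the pericentral bar is the highest in ZT18A (379) and ZT18B (427).

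The difference between chosen and matched cells changed with time for few genes. The test compared ZT0, ZT6 and ZT18, with ZT18 as 1 library, and called 4 of 3282 genes (0.122%): Glul (edgeR adjusted p = 3.76e-10), Oat (0.00145), Hamp (0.0125) and Cyp2e1 (0.0475). For Glul, libraries of the same time lay far apart, at 69.2 against 112 CPM in ZT0B and 76.7 against 2108 in ZT0C. At ZT6 Glul was at 42.5 against 100 CPM in A and 431 against 112 in B. Cyp2e1 was lower in chosen cells at ZT0 and ZT6 and higher at ZT18, as given above. Hamp, the iron hormone hepcidin, was at 302 against 687 CPM in ZT6A and 181 against 531 in ZT6B, while at ZT0 it was at 130 against 190 in B and 393 against 268 in C. Slc1a2 was next, at an edgeR adjusted p of 0.166. No gene was called by edgeR without ZT0C or by DESeq2, with 102 and 11 at an unadjusted p under 0.05.

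The make-up of the cells was compared at matched depth, where with 5 libraries the exact test cannot go below 0.0625. Mitochondrially encoded transcripts made a smaller share in 5 of 5 libraries, by -1.67 ± 0.60 percentage points (SD, n = 5; exact permutation p = 0.0625, adjusted 0.188): 15.2% against 16.8% in ZT0B, 16.2% against 17.7% in ZT0C, 14.3% against 16.9% in ZT6A, 13.9% against 15.7% in ZT6B and 18.3% against 19.2% in ZT18B. More genes were detected, by 72.9 ± 22.0 (SD, n = 5; exact permutation p = 0.0625, adjusted 0.188), in 5 of 5. Matching within 10% left chosen cells with 5.92% more UMIs in sum than matched cells in ZT0C and 2.28% more in ZT6A. In ZT0B, ZT6B and ZT18B the sums differed by at most 0.575%, and there chosen cells had 58.8, 106 and 69.3 more genes detected. With the cut at 3 UMIs and 9 libraries, the mitochondrial share was lower in 9 of 9 (-1.58 points) and the number of genes detected higher in 9 of 9 (69.3) (exact permutation adjusted p = 0.0117 for both). Of 13 mitochondrially encoded genes none was called at the cut of 5, and 5 had an unadjusted p under 0.05, against 326 of all 3282 genes. At the cut of 3, 7 of them were called, all lower, where 3.12% of all genes were lower. The share of UMIs from hepatocyte genes moved by -1.52 ± 1.93 points and that of ribosomal protein genes by 0.69 ± 0.62 points (SD, n = 5; exact permutation p = 0.125 for both). Their part in the gene differences was not tested, apart from the pairing on mitochondrial share, under which 21 genes were higher and 47 lower.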

How the data were processed

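The deposited tables hold UMI counts per gene and cell, 10 libraries in all, made by the authors with Cell Ranger, per the submitters' processing notes, which also list mm10 and hg19 without a role. The deposited cells hold 1048 to 10001 UMIs each. Library totals were 1.45e+06 to 7.14e+06 UMIs and median depths 1588 to 2662 UMIs per cell. The members and gene lists were chosen with earlier results of these data known.

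Chosen cells were paired 1 to 1 with cells of 0 UMIs of the 7 genes in the same library, within 10% of total UMIs without the 7 genes. Counts were summed per library and class and tested with edgeR 4.0.16 (TMM, library as block, mean of at least 30 CPM), in R 4.3.3; DESeq2 1.42.0 was an alternative. The script was tested on simulated data. Named genes were up to 15 with the largest higher and 10 with the largest lower difference among calls that moved the same way in all libraries but at most 1, up to 4 of lowest p per list, and the 5 of lowest adjusted p for time. The time test has 2 degrees of freedom, not the 3 planned, since no ZT12 library reached 10 pairs. Cells carry numbers and not barcodes, so shared barcodes could not be counted; 0 cells had identical counts in 2 places. Replicate libraries differed beyond counting noise (chi-square of 5.30 to 63.6 per degree of freedom).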

Additional observations from a re-analysis of the deposited data

Results flagged for a closer look

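The difference between chosen and matched cells differed between ZT0, ZT6 and ZT18 for 4 genes by edgeR's test of the difference itself: Glul (adjusted p = 3.76e-10), Oat (adjusted p = 0.00145), Hamp (adjusted p = 0.0125) and Cyp2e1 (adjusted p = 0.0475). None of them was called without ZT0C.

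The level of the 7 genes in the periportal over the pericentral bin moved in opposite directions in the libraries of 2 times. Its log2 ratio was 0.44 in ZT6A and 0.48 in ZT6B, and -0.51 in ZT18A and -0.33 in ZT18B. The difference was not tested.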

How the results depend on the processing

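The counts of 12 higher and 53 lower genes moved with the processing. The higher genes numbered 2 by DESeq2, 22 with library size in place of TMM, 21 without depth matching, 21 with matching on mitochondrial share, 19 with up to 3 matched cells, 4 with matching on zonation score and 19 in libraries with at least 20 pairs; leaving out 1 library gave 5 to 19. The lower genes numbered 13 by DESeq2, 102 at a cut of 3 UMIs, 17 with matching on zonation score and 33 without the 5% deepest cells. At a mean of at least 100 CPM 35 of 1176 genes tested were lower, against 53 of 3282, and all 35 were among the 53. Leaving out 1 library gave 18 to 58 lower genes. With no replicate block, that is without the library as block, 0 were higher and 0 lower by edgeR, with 30 and 61 at an unadjusted p under 0.05. Alternatives chosen after seeing the data left out ZT0C together with another change: a cut of 3 UMIs gave 8 higher and 85 lower genes, and matching on zonation score 0 and 2. The time test called 4 genes, 0 by DESeq2, and 0 to 7 with 1 library left out. The 4 of the 7 genes called when left out of the choice were 0 to 4 with 1 library left out. The share by time passed without ZT0C alone, with exact permutation p between 0.0452 and 0.432 over libraries left out and 0.243 with the replicate block of letters. At a cut of 3 UMIs mitochondrial share (-1.58), genes detected (69.3), hepatocyte share (-1.32) and ribosomal share (0.69) passed the exact permutation test. Same-letter libraries of ZT0 and ZT12 deviated together (correlations of 0.28 in A, 0.52 in B and 0.64 in C), those of ZT0 and ZT6 did not (-0.16 and -0.09), so letters were not used as pairs. A cut of 8 UMIs left 1 library with 10 pairs and the letter block left the time test no residual degrees of freedom; neither was run. Of 1880 values of single genes under alternatives, 1616 kept their side of the threshold, 203 lost the call, 59 gained one and 2 reversed. Among genes outside the rule, direction was checked only for those called in the main fit. The 2 that reversed were Fitm1 (0.12) and Cyp4a10 (0.16), both with matching on zonation score and without ZT0C. Sparse genes such as Nr4a1 and Atf3 are limited by depth.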
